A study of Mus musculus with 6 samples.

Results

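The transcription factor p53, encoded by Trp53 in the mouse, and 9 of its direct target genes (Mdm2, Mdm4, Cdkn1a, Ccng1, Plk2, Zmat3, Phlda3, Trp53inp1 and Gdf15) were examined in melanoma cells depleted of OSGEP. The 10 genes were chosen by name, as known parts of the p53 response. They are 10 of the 55487 genes in the count table, and all 10 were expressed highly enough to be among the 12669 genes tested. B16F10, a mouse melanoma cell line, was infected with a lentivirus carrying a scramble shRNA (shCtr, n = 3) or an shRNA against Osgep (shOSGEP, n = 3), and each library came from a separate infection. All cells of both groups had gone through puromycin selection, and shOSGEP was a single hairpin, the second of the study, so the comparison holds 1 cell line and 1 hairpin. OSGEP does the catalysis within KEOPS, which attaches the t6A modification to tRNAs that read codons starting with A. The question asked here was how the mRNA of p53 and of its targets stood after OSGEP loss.

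p53 is held at low protein levels in unstressed cells by MDM2, which marks it for degradation, and by MDM4, which binds it and blocks its activity. DNA damage, disturbed ribosome production and other stresses release it from both. It then binds a pair of short decamers in its targets and switches on arrest, repair, metabolic and death genes, and also Mdm2, which closes a feedback loop. Since p53 is controlled mainly as a protein, the level of its mRNA is a poor readout of its activity, which is usually read from the target genes. Many of these targets have other activators, and Gdf15 and Cdkn1a in particular also respond to stress through routes without p53.

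Letters from the promoters are shown first, because binding of p53 at its decamer is what makes a gene a direct target. Promoter windows of 300 bases, from 250 before to 50 after each RefSeq transcript start (GRCm38.p6), were found for 8 of the 10 genes, as 11 windows. The windows were searched for the consensus decamer of p53, the p53 half-site, which reads alike on both strands. Only exact matches were counted, so decamers that depart from the consensus stay in small letters below, also beside a match. It was found in 4 of the 11 windows, each of a different gene, and in 8.36% of all 32851 windows of the table. Counted by gene, that was 4 of the 8, against 9.55% of the 27025 genes with a window. Positions count the first base of each window's transcript as 0. In the upstream of its windows, Cdkn1a held 2 decamers separated by 12 bases, at positions -73 and -51 (chr17:29090881-29090962, plus strand). Mdm2 held 1 at position -186 (chr10:117710910-117710969, minus strand), Ccng1 held 1 at position -185 (chr11:40755437-40755496, minus strand) and Trp53 held 1 at position -75 (chr11:69580259-69580318, plus strand). In the lines that follow, written 5′ to 3′ on the strand of the gene, capitals mark the decamers.
Cdkn1a: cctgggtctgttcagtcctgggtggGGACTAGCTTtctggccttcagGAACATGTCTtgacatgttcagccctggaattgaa
Mdm2: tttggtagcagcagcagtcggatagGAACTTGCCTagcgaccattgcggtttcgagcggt
Ccng1: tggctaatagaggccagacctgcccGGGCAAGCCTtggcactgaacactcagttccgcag
Trp53: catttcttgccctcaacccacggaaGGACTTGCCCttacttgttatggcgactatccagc
The windows of Plk2, Phlda3, Gdf15 and Mdm4 and the other window of Cdkn1a did not contain these letters. A match describes the sequence only, and binding was not measured.

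The targeted gene was checked first. Osgep was measured at 20.6, 58.6 and 21.8 CPM (counts scaled to library size, with TMM factors) in shCtr replicates 1, 2 and 3, against 4.28, 0.542 and 5.52 CPM in shOSGEP replicates 1, 2 and 3. Every shOSGEP library lay below every shCtr library, with a Log2FC (log2 fold change of shOSGEP against shCtr, from edgeR) of -3.29 (SE 0.876). The libraries held 18915587 to 29487384 counts, and a count of 3, used as the floor of detection, equalled 0.116 to 0.147 CPM. All 7 melanocyte markers (Mlana, Pmel, Dct, Tyr, Tyrp1, Mitf and Sox10) were expressed, with a summed level of 17040 to 29600 CPM in shCtr and of 3551 to 18080 CPM in shOSGEP, the lowest being shOSGEP replicate 2. Of the 5 immune cell markers, 3 (Ptprc, Cd3e and Itgam) had no count in any library, and the summed immune, endothelial and epithelial marker levels never exceeded 3.14, 0.310 and 0.884 CPM. The summed level of 4 fibroblast markers, of which 2 were tested, was 5.06 to 11.2 CPM in shCtr and 12.98 to 19.45 CPM in shOSGEP, with Dcn at 0 counts in every library. The part of these marker differences in the results was not tested. In RNA from whole cultures, fewer cells of a type and less RNA per cell cannot be told apart.

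Replicate 2 stood apart in both groups, in different ways. shOSGEP replicate 2 had a TMM factor of 1.07 and the lowest Osgep of all libraries, at 0.542 CPM. A part of this deeper knockdown in the replicate 2 ratios given below was not tested. shCtr replicate 2 had a TMM factor of 0.690, against 1.04 to 1.14 in the other 5 libraries, and its levels moved with the GC content of the transcripts. Over the 512 tested genes with more than 60% GC, its median lay 1.32 above the mean of shCtr replicates 1 and 3 on the log2 scale. Over the 771 genes with less than 40% GC the median difference was -2.55. Over the 11375 genes with 40 to 60% GC it was 0.04 (quartiles -1.11 and 0.96). The 10 genes of the p53 group reach from the lowest to the highest of these GC ranges. Trp53inp1, with 38.8% GC in its longest transcript, differed by -4.66 on the log2 scale in shCtr replicate 2, Mdm4 (43.3% GC) by -4.32, Ccng1 (40.8% GC) by -3.02 and Mdm2 (46.2% GC) by -2.82. At the other end, Phlda3 (62.6% GC) differed by 1.97, Cdkn1a (54.4% GC) by 1.55, Gdf15 (61.3% GC) by 1.24 and Trp53 (53.3% GC) by 0.89. Zmat3 (47.6% GC) and Plk2 (48.0% GC) lay near the middle, at -0.18 and -0.44. Among those with 40 to 60% GC, Mdm4, Ccng1 and Mdm2 lay below the quartiles of that range and Cdkn1a above them. Trp53, Zmat3 and Plk2 lay between these quartiles. A smooth trend of GC content and transcript length, fitted over all genes, gave the same sign as these differences for all 10 genes, but not the same size. For Mdm2 the trend gave -0.71 and for Zmat3 -1.39. Since the comparisons that follow hold this library, the values of the 10 genes are given within every replicate number as well, and without both libraries of replicate 2.

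**Figure D1:**
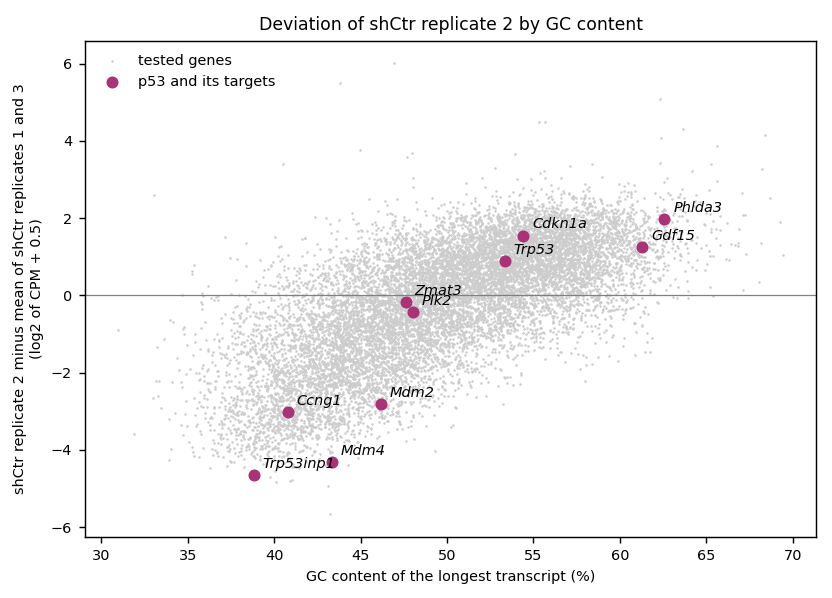
Difference of shCtr replicate 2 from the mean of shCtr replicates 1 and 3 (vertical axis, log2 of CPM + 0.5) against the GC content of each gene's longest transcript (horizontal axis, %); grey points are tested genes and purple points the 10 genes of the p53 group. Trp53inp1, Mdm4, Ccng1 and Mdm2 (38.8 to 46.2% GC) lie between -4.66 and -2.82. Trp53, Gdf15, Cdkn1a and Phlda3 (53.3 to 62.6% GC) lie between 0.89 and 1.97.

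Of the 10 genes, Plk2 alone passed the threshold of the study's methods (a Log2FC beyond 0.5 with an unadjusted p under 0.05), and it was higher in shOSGEP. Over all tested genes, 2.02% passed this threshold, 1.59% as higher and 0.426% as lower. None of the 10 passed an adjusted p under 0.05, nor did any of the 12669 genes (0%) in edgeR, where the smallest adjusted p was 1.00. At an unadjusted p under 0.05, edgeR counted 256 genes, and at an adjusted p under 0.05 DESeq2 counted 14 and limma-voom with quality weights 3, none of them in the p53 group. Plk2 was also the only 1 of the 10 whose groups did not overlap, against 6.36% of all tested genes. Mdm2, Mdm4, Ccng1, Plk2, Trp53inp1 and Gdf15 were higher in shOSGEP in all 3 same-numbered pairs, that is 6 of 10, against 17.6% of all genes, and none of the 10 was lower in all 3. The median Log2FC of the 10 was 0.41, against -0.03 over all genes, and the median log2 ratio within replicates 1, 2 and 3 was 0.27, 1.89 and 0.40, against -0.02, 0.10 and -0.01 over all genes.

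**Figure D2:**
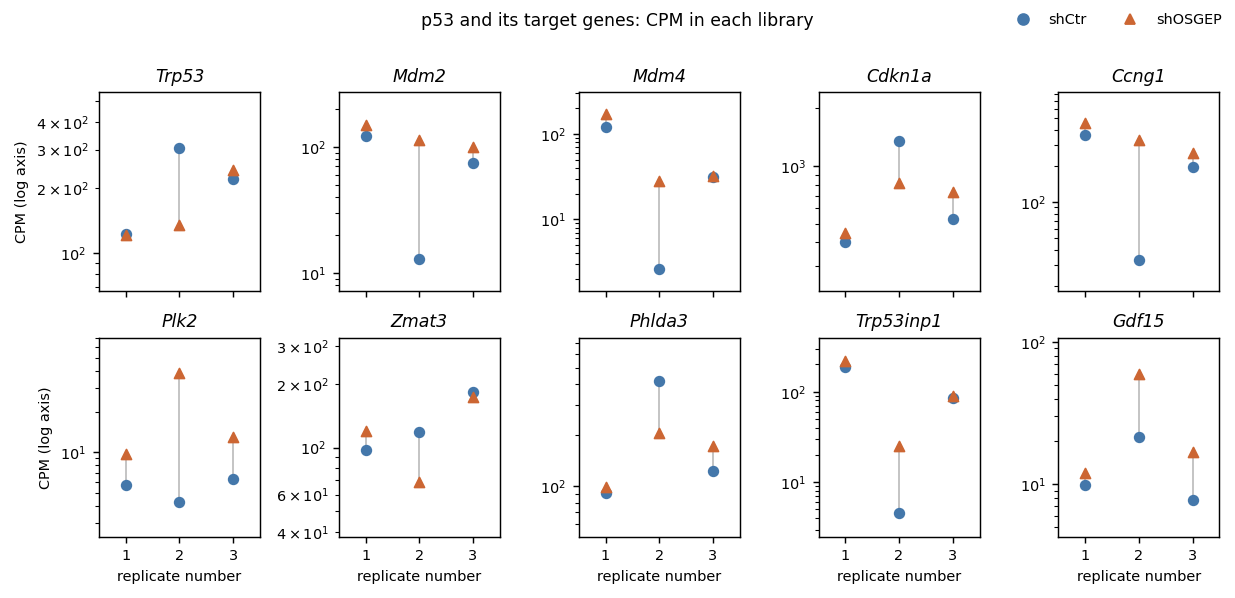
Level of each gene (CPM, log axis, a scale of its own in every panel) in the 3 shCtr libraries (blue circles) and the 3 shOSGEP libraries (orange triangles), by replicate number, with a grey line joining same-numbered libraries. In Mdm2, Mdm4, Ccng1 and Trp53inp1 the lowest point is shCtr replicate 2, at 13.03, 2.605, 32.5 and 4.52 CPM; in Plk2 all 3 triangles lie above all 3 circles.

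Trp53 encodes p53 itself. The gene spans bases 69580359 to 69591873 of chromosome 11 (plus strand, GRCm38). In order of replicate number, the shCtr libraries gave 123, 305 and 220 CPM and the shOSGEP libraries 121, 136 and 241 CPM. The groups overlapped over most of their range, replicates 1 and 3 hardly differed between the groups, and the highest library was shCtr replicate 2. The Log2FC was -0.38 (SE 0.489, 95% interval -1.501 to 0.74), and an exact permutation test gave p = 0.6. Within replicates the log2 ratio was -0.02, -1.17 and 0.13. Without both libraries of replicate 2 the Log2FC was 0.08 (SE 0.462), so its sign rested on that replicate. No difference in p53 mRNA was detectable with 3 libraries a group.

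Mdm2 encodes the ubiquitin ligase that degrades p53 and is itself a p53 target. The gene spans bases 117688875 to 117710758 of chromosome 10 (minus strand). Its level was 121, 13.03 and 74.8 CPM in the shCtr libraries, against 149, 113 and 98.7 CPM in the shOSGEP libraries. shCtr replicate 2 was far below the other 5 libraries, and each shOSGEP library was above its same-numbered control. The Log2FC was 0.79 (SE 0.703, 95% interval -0.82 to 2.40, exact permutation p = 0.3), and within replicates the log2 ratio was 0.30, 3.07 and 0.40. The difference did not pass the threshold under any of the 19 alternatives, and was 0.34 (SE 0.367) without replicate 2.

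Mdm4 encodes the relative of MDM2 that binds the activation domain of p53. Its position is chromosome 1, bases 132959484 to 133030561, on the minus strand. Libraries of shCtr gave 122, 2.605 and 31.2 CPM, and those of shOSGEP 170, 28.2 and 32.4 CPM. Levels differed more between replicate numbers than between the groups, with replicate 1 highest and shCtr replicate 2, at 53 counts, lowest. The Log2FC was 0.57 (SE 1.17, 95% interval -2.12 to 3.26, exact permutation p = 0.5) and the ratios within replicates were 0.48, 3.21 and 0.06 on the log2 scale. Both inhibitors thus had their large difference in replicate 2 and differences below 0.5 in replicates 1 and 3. Without replicate 2 the Log2FC of Mdm4 was 0.40 (SE 0.885).

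Among the cell cycle targets, Cdkn1a encodes p21, the inhibitor of cyclin-dependent kinases through which p53 arrests the cell cycle. The gene spans bases 29090976 to 29100727 of chromosome 17 (plus strand). Its level was 400.1, 1346 and 531 CPM in the shCtr libraries, against 446, 815 and 731 CPM in the shOSGEP libraries. All shOSGEP libraries lay inside the range of the shCtr libraries. The Log2FC was -0.19 (SE 0.568, 95% interval -1.496 to 1.11, exact permutation p = 1), with log2 ratios of 0.16, -0.72 and 0.46 within replicates. The sign was opposite, 0.34 (SE 0.378), without replicate 2, and it was also positive, 0.12 (SE 0.274), in a fit that took out each library's trend with GC content and length (offsets). No difference in Cdkn1a was detectable in either direction.

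Ccng1 encodes cyclin G1, which recruits a phosphatase to MDM2. Its position is chromosome 11, bases 40748552 to 40755311, on the minus strand. Libraries of shCtr gave 366, 32.5 and 195 CPM, and those of shOSGEP 456, 330.2 and 258 CPM. The groups overlapped only through shCtr replicate 1, which was above 2 of the shOSGEP libraries, and shCtr replicate 2 was by far the lowest. The Log2FC was 0.82 (SE 0.752, 95% interval -0.91 to 2.54, exact permutation p = 0.3). The log2 ratios of 0.32, 3.32 and 0.40 within replicates were close to those of Mdm2. With offsets for GC content and length the Log2FC was 0.77 (SE 0.331, unadjusted p = 0.0487) and passed the threshold, and without replicate 2 it was 0.35 (SE 0.446).

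Plk2 encodes a polo-like kinase that acts at centrioles and in the response to stress. The gene spans bases 110395046 to 110400844 of chromosome 13 (plus strand). In shCtr it stood at 5.69, 4.28 and 6.32 CPM (134, 87 and 137 counts), and in shOSGEP at 9.63, 38.9 and 12.98 CPM (207, 1004 and 306 counts). All 3 shOSGEP libraries were above all 3 shCtr libraries, and the highest was shOSGEP replicate 2. The means were 5.43 ± 1.05 CPM in shCtr and 20.5 ± 16.02 CPM in shOSGEP (SD, n = 3 each). The Log2FC was 1.92 (SE 0.625, 95% interval 0.48 to 3.35), or 3.77-fold, with an unadjusted p = 0.0148 and an adjusted p of 1.00 in edgeR, so the difference failed the correction. An exact two-sided permutation test gave p = 0.1, the smallest that 3 libraries against 3 allow.

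Plk2 differed in every replicate number, with log2 ratios of 0.71, 3.04 and 0.98. Unlike in Mdm2, Mdm4, Ccng1 and Trp53inp1, its shCtr replicate 2 was near its other controls, and the large ratio came from shOSGEP replicate 2. Gdf15 was also highest in shOSGEP replicate 2, but its shCtr replicate 2 was its highest control. Without both libraries of replicate 2 the Log2FC of Plk2 was 0.91 (SE 0.341, unadjusted p = 0.0359) and still past the threshold. The Log2FC was 1.07 (unadjusted p = 0.0588) without shOSGEP replicate 2 alone and 2.28 (unadjusted p = 0.0526) without both libraries of replicate 3, and did not pass in either case. It passed in the other 17 of 19 alternatives.

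Zmat3 encodes a zinc finger protein that binds RNA and shapes splicing and mRNA stability downstream of p53. Its position is chromosome 3, bases 32334792 to 32366014, on the minus strand. In shCtr it stood at 97.9, 118 and 183 CPM, and in shOSGEP at 119.8, 68.5 and 173 CPM. The groups overlapped and no replicate number stood far from the others. The Log2FC was -0.14 (SE 0.475, the smallest of the 10 genes, exact permutation p = 0.8), with log2 ratios of 0.29, -0.78 and -0.08, and was 0.06 (SE 0.4002) without replicate 2.

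Phlda3 encodes a PH domain protein that competes with AKT for membrane lipids. The gene spans bases 135766119 to 135769136 of chromosome 1 (plus strand). Its level was 90.8, 416 and 123 CPM in the shCtr libraries, against 98.7, 206 and 173 CPM in the shOSGEP libraries. As for Cdkn1a, shCtr replicate 2 was the highest library, and the 3 shOSGEP libraries lay inside the shCtr range. The Log2FC was -0.39 (SE 0.633, exact permutation p = 0.9), with log2 ratios of 0.12, -1.01 and 0.50, and was 0.35 (SE 0.375) without replicate 2.

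Trp53inp1 encodes a nuclear protein that takes part in autophagy and in p53-dependent death. Its position is chromosome 4, bases 11156431 to 11174379, on the plus strand. Libraries of shCtr gave 187, 4.52 and 85.4 CPM, and those of shOSGEP 218, 24.8 and 89.1 CPM. Both libraries of replicate 2 were below all other libraries, and the groups overlapped. The Log2FC was 0.26 (SE 1.12, exact permutation p = 0.6), and the log2 ratios were 0.21, 2.33 and 0.06. Without replicate 2 the Log2FC was 0.16 (SE 0.551). Mdm4 and Trp53inp1 had the widest standard errors of the 10 genes.

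Gdf15 encodes a secreted ligand of the TGF-beta family, and is known both as a p53 target and as a gene of the integrated stress response. The gene spans bases 70629393 to 70632456 of chromosome 8 (minus strand). In shCtr it stood at 9.90, 21.4 and 7.75 CPM, and in shOSGEP at 11.96, 59.1 and 17.01 CPM. Each shOSGEP library was above its same-numbered control, and the groups overlapped through shCtr replicate 2. The Log2FC was 1.18 (SE 0.711, 95% interval -0.46 to 2.81), or 2.26-fold, with an unadjusted p = 0.136 and an exact permutation p = 0.4, and the log2 ratios were 0.26, 1.45 and 1.09. With the replicate number as a term of the fit (replicate block) the Log2FC was 0.96 (SE 0.362) with an unadjusted p = 0.0406, which passed the threshold of the study. It also passed with the GC and length offsets (1.399, unadjusted p = 0.0201) and without shCtr replicate 2 (1.73, unadjusted p = 0.0390), and did not pass without both libraries of replicate 2 (0.72, unadjusted p = 0.0821) or without shOSGEP replicate 2 alone (0.19, unadjusted p = 0.756).

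**Figure D3:**
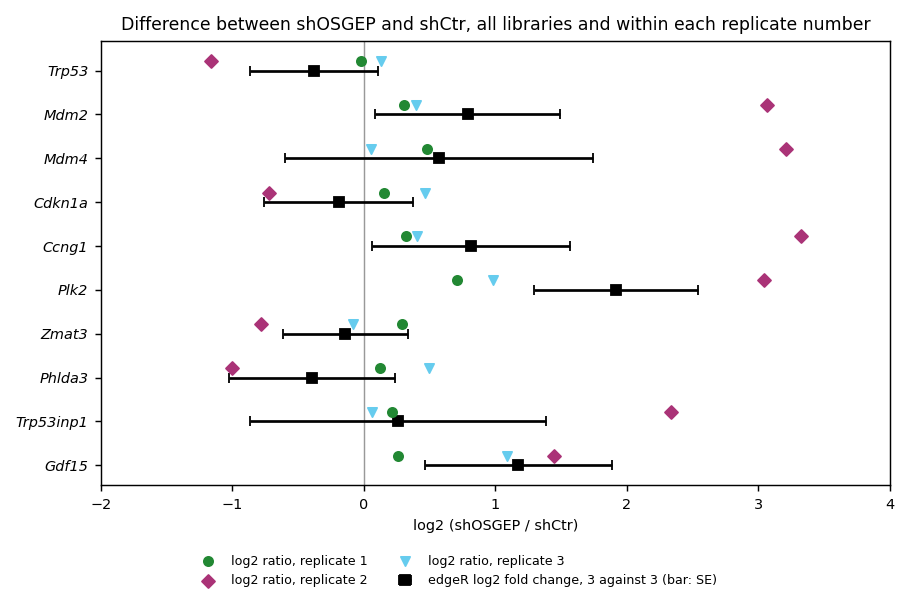
Log2 ratio of shOSGEP to shCtr (horizontal axis) for each gene (vertical axis), within replicate 1 (green circles), replicate 2 (purple diamonds) and replicate 3 (blue triangles), with the edgeR Log2FC over all libraries (black squares, bars are SE). The diamonds of Mdm2, Mdm4, Ccng1 and Plk2 lie above 3, while circles and triangles lie between -0.08 and 1.09 for all 10 genes.

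The values were compared across ways of fitting. Shares of all genes above 0 were not counted in the refits, so the medians over all genes are given instead. Leaving out both libraries of replicate 2, all 10 genes had a Log2FC above 0, from 0.06 in Zmat3 to 0.91 in Plk2, with a median of 0.34 against -0.01 over all genes, and Plk2 alone passed the threshold of the study, as did 1.63% of all genes. In that fit every gene of the group except Plk2 and Gdf15 lay within 1 SE of 0. With all 6 libraries 6 of 10 were above 0, as were 5998 of the 12669 tested genes. With offsets for GC content and length 8 of 10 were above 0, with a median of 0.39 against -0.05 over all genes. Plk2, Gdf15 and Ccng1 passed with these offsets, as did 5% of all genes. Within replicate 1 alone 9 of 10 genes were higher in shOSGEP, within replicate 2 6 of 10, and within replicate 3 9 of 10. Over all tested genes, 5911, 6641 and 6115 of 12669 were higher within replicates 1, 2 and 3. With the replicate block 2 of the 10 genes, Plk2 and Gdf15, passed the threshold of the study, as did 2.94% of all genes (373 of 12669). In limma-voom with quality weights and the replicate block, which weighted replicate 1 at 4.54 and 4.604 and replicate 2 at 0.112 and 0.113, all 10 were above 0, and Plk2 (0.89, adjusted p = 0.000161) and Gdf15 (0.55, adjusted p = 0.0257) passed an adjusted p under 0.05. That fit called 1403 of 12669 genes (11.1%), and its median over all genes was -0.02. Without shOSGEP replicate 1 the median of the 10 genes was -0.06, against -0.13 over all genes.

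**Figure D4:**
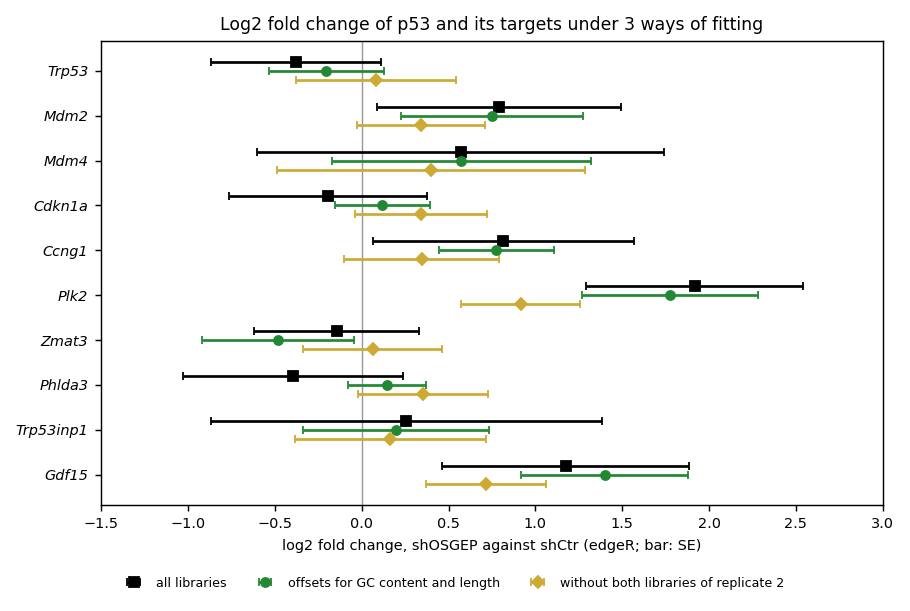
Log2FC of each gene in edgeR (horizontal axis, bars are SE) with all 6 libraries (black squares), with offsets for GC content and transcript length (green circles) and without both libraries of replicate 2 (yellow diamonds). Trp53, Cdkn1a, Zmat3 and Phlda3 lie below 0 with all libraries and above 0 without replicate 2, where the 10 values run from 0.06 to 0.91.

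Levels of different genes can be compared only per transcript length, as TPM (counts divided by the length of each gene's longest transcript and scaled to the same total in every library). In shCtr, Cdkn1a was the most abundant of the 10 mRNAs, at 653 ± 184 TPM (SD, n = 3), and Plk2 the least abundant, at 4.23 ± 1.97 TPM. Between them stood, in falling order of the mean, Phlda3 (249 ± 114 TPM), Ccng1 (136 ± 122 TPM), Trp53 (128 ± 39.0 TPM), Mdm2 (53.3 ± 44.99 TPM), Trp53inp1 (41.9 ± 42.0 TPM), Zmat3 (36.5 ± 20.2 TPM), Mdm4 (17.9 ± 21.7 TPM) and Gdf15 (15.5 ± 2.70 TPM). The lowest library of Cdkn1a (474 TPM) was above the highest of Phlda3 (377 TPM), and the lowest of Gdf15 (12.6 TPM) was above the highest of Plk2 (5.68 TPM). Every other pair of neighbours in this order overlapped between libraries. In shOSGEP replicate 2 Gdf15 reached 78.3 TPM and Plk2 28.4 TPM, above their levels in the other 5 libraries.

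The other genes of the pathway were described as lists, by counts and medians. Over all 12669 tested genes, 5998 had a Log2FC above 0 and 6671 below, with a median of -0.03. Of 18 regulators of p53 (kinases, ubiquitin ligases, cofactors and relatives), 15 were tested, 5 with a Log2FC above 0 and 10 below, with a median of -0.11. The sign of this median was not stable: it was 0.18 without shOSGEP replicate 2, 0.12 without shCtr replicate 3, -0.40 without shOSGEP replicate 1, and -0.26 when shCtr replicate 2 was left out, where 0 of 15 were above 0. Leaving out replicate 2 in both groups gave -0.14. None passed the threshold of the study. The 2 with the smallest p were Ppm1d, the phosphatase WIP1 that p53 induces and that switches p53 off (22.9, 25.1 and 26.2 CPM against 17.8, 13.4 and 18.5 CPM, Log2FC -0.58, unadjusted p = 0.183), and Chek2, a DNA damage kinase (37.0, 47.1 and 35.6 CPM against 29.6, 23.4 and 30.2 CPM, Log2FC -0.52, unadjusted p = 0.209). For both, every shOSGEP library was below every shCtr library. Over all tested genes, the groups did not overlap in 6.36%, in either direction. Cdkn2a, which encodes the MDM2 inhibitor p19Arf, had 0 counts in all 6 libraries, and Trp63 and Trp73 were too low to be tested.

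All 20 targets of growth arrest and DNA repair were tested, 12 above 0 and 8 below, with a median of 0.25. It was 0.33 without replicate 2, 0.53 with the replicate block, and 0.01 without shOSGEP replicate 1, where 10 were above 0 and 10 below. Of these, 2 passed the threshold, both higher in shOSGEP, as did 1.59% of all tested genes. Gadd45a, a stress sensor that also answers to ATF4, rose from 6.12, 2.56 and 3.73 CPM to 14.8, 107.8 and 7.76 CPM (Log2FC 3.39, SE 1.01, unadjusted p = 0.00936). Btg2, an antiproliferative gene, rose from 18.3, 5.997 and 15.3 CPM to 27.8, 64.9 and 21.9 CPM (Log2FC 1.53, SE 0.613, unadjusted p = 0.0360). In both the groups did not overlap, as in 6.36% of all tested genes, and the highest library was shOSGEP replicate 2. With the replicate block neither passed (unadjusted p = 0.0586 and unadjusted p = 0.0846), and without replicate 2 the Log2FC of Gadd45a was 1.19 (unadjusted p = 0.0422) and that of Btg2 0.56 (unadjusted p = 0.104). Without shOSGEP replicate 2 alone Gadd45a was at 1.45 (unadjusted p = 0.0466).

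Of 18 targets of apoptosis and death receptors, 11 were tested, 3 above 0 and 8 below, with a median of -0.18 that turned to 0.04 without replicate 2. None passed the threshold. Siva1 (Log2FC -0.86, unadjusted p = 0.199) and Bbc3, which encodes PUMA (6.80, 7.47 and 6.04 CPM against 5.03, 21.6 and 9.503 CPM, Log2FC 0.83, unadjusted p = 0.199), had the smallest p. Their log2 ratios within replicates were -0.56, -1.55 and 0.26 for Siva1 and -0.40, 1.47 and 0.61 for Bbc3, and without replicate 2 their Log2FC was -0.09 and 0.18. Among the 7 that were not tested, Pmaip1, which encodes NOXA, had 0 counts in every library, and the death receptor gene Fas had 6, 2 and 1 counts in shCtr and 23, 85 and 6 counts in shOSGEP.

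Genes of cell division that p53 lowers indirectly, through p21 and the DREAM repressor, were all below 0. All 18 were tested, their median was -0.90, and 15 were lower in all 3 same-numbered pairs, as were 2176 of the 12669 tested genes. Over all tested genes, 0.426% passed the threshold of the study as lower. The threshold of the study was passed by 1, Birc5 (survivin), with 129.9, 240.1 and 135 CPM in shCtr against 83.9, 52.7 and 99.5 CPM in shOSGEP (Log2FC -1.10, SE 0.449, unadjusted p = 0.0395), and it did not pass with the replicate block (-1.07, unadjusted p = 0.0510) or without replicate 2 (-0.53, unadjusted p = 0.101). Cdc20, an activator of the anaphase-promoting complex, had a Log2FC of -1.36 (unadjusted p = 0.0577), with log2 ratios of -0.48, -3.13 and -0.28 within replicates, and was at -0.36 (unadjusted p = 0.386) without replicate 2. Without replicate 2 the median was -0.32, with all 18 still below 0. What lowered these genes was not tested.

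Gdf15 was set beside 10 genes of the integrated stress response, of which 9 were tested. All 9 were above 0 and higher in all 3 pairs, with a median of 1.83 (0.97 without replicate 2), and 6 passed the threshold (Atf4, Ddit3, Trib3, Chac1, Ppp1r15a and Nupr1). Over all tested genes, 17.6% were higher in all 3 pairs and 1.59% passed the threshold as higher. Trib3 rose from 23.2, 57.9 and 38.5 CPM to 128, 454 and 171 CPM (Log2FC 2.65, unadjusted p = 0.00258), and Nupr1 from 15.98, 16.7 and 12.4 CPM to 45.1, 205 and 28.3 CPM (Log2FC 2.63, unadjusted p = 0.00815). Without replicate 2 the Log2FC of Trib3 was 2.28 and that of Nupr1 1.37. Sesn2 belongs to this list and to the list of arrest and repair genes.

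**Figure D5:**
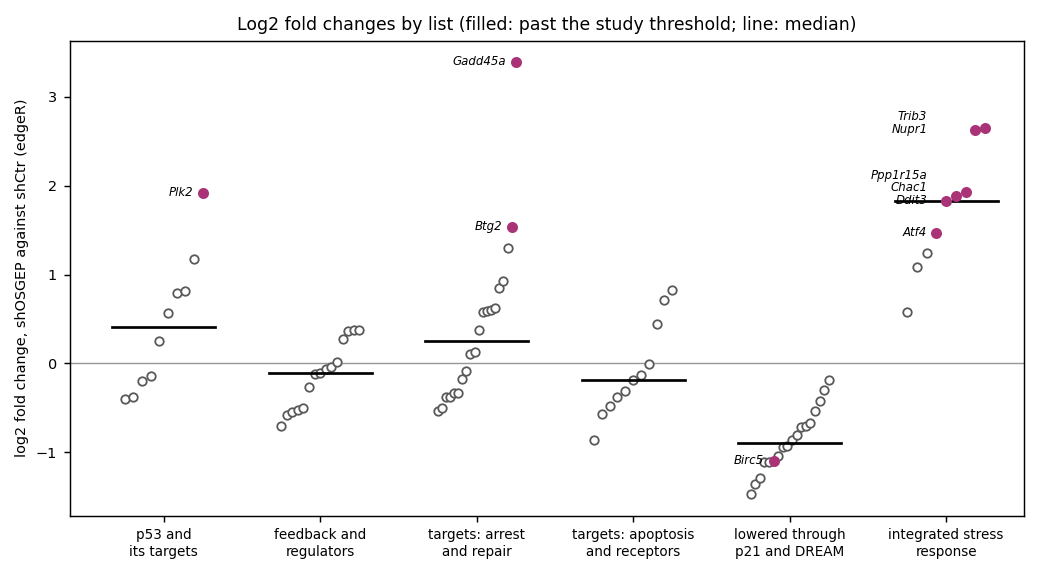
Log2FC of shOSGEP against shCtr (vertical axis, edgeR) for each tested gene of the p53 group and of 5 lists (horizontal axis), with filled purple points for genes past the threshold of the study, which are named, and a line at each median. The medians are 0.41, -0.11, 0.25, -0.18, -0.90 and 1.83 from left to right.

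Since t6A serves tRNAs that read codons starting with A (ANN codons), the share of these codons was computed for each coding sequence. The 10 genes had a median of 26.2% ANN codons, against 26.9% over 11509 tested genes (quartiles 23.6% and 29.8%). The share ran from 14.5% in Gdf15, at percentile 1.09 of the tested genes, and 19.5% in Cdkn1a, at percentile 7.86, to 30.6% in Mdm4, at percentile 80.99, and 30.9% in Plk2, at percentile 82.98. Plk2 and Gdf15, the 2 genes with the largest Log2FC of the 10, stood at opposite ends of the range of these 10 genes. A part of codon content in the differences was not tested.

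The pattern of Trp53 over the 6 libraries was most like that of Dhx37, Bag6 and Pml, with a Pearson correlation of log2 CPM of 0.997, 0.996 and 0.996 among 10977 genes with a mean of at least 50 counts. Among the genes with the pattern most like that of Cdkn1a were Phlda3 (0.997) and Mcrip1 (0.997). High values were common, with 634 genes above 0.9 for Trp53 and 1729 for Cdkn1a, and all points share the same 6 libraries and their differences in GC content. Within the 10 genes, Mdm2 and Ccng1 correlated at 0.998 and Mdm4 and Trp53inp1 at 0.952, while Cdkn1a and Trp53inp1 correlated at -0.956. These are descriptions over 6 points.

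Some of the 10 genes share sequence with other genes. Of the 31-base words of the longest Mdm4 transcript, 27.6% occur in the pseudogene Mdm4-ps, which had 0 counts in every library. For Trp53, 9.49% of words occur in other genes, mainly Trp53-ps, which had 1 to 8 counts. Cdkn1a shares 273 exon bases with AC167363.2 on the opposite strand, which had at most 1 count, and the library kit was not stated to keep strand. Plk2, Gdf15, Phlda3 and Trp53inp1 share no such word with another gene.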

How the data were processed

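The values deposited by the authors are estimated counts per Ensembl gene, as whole numbers and without normalization. The authors purified polyA RNA, sequenced paired reads, removed adapters with TrimGalore, mapped the reads to GRCm38 with STAR 2.6.1d in nf-core/rnaseq and quantified genes with Salmon 1.4.0, which divides reads shared by similar transcripts by likelihood. Total counts set the precision of each value, and the floor of 3 counts covers counting error only.

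Genes were kept by filterByExpr (minimum count 10, minimum total 15), scaled by TMM and compared in edgeR 4.0.16 (R 4.3.3) by its quasi-likelihood F-test, two-sided, without a block, with Benjamini-Hochberg adjustment over 12669 genes. SEs are the Log2FC divided by the square root of F. Ratios within replicate numbers are log2(CPM + 0.5) differences. Coordinates, GC content, lengths and coding sequences came from GENCODE M21 (GRCm38), and promoters from RefSeq (GRCm38.p6). The script was tested on simulated counts without a GC trend, replicate pairing or an outlying library. That test therefore does not cover these features of the data.

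The 10 genes, the lists and the tests were chosen with earlier results of these data known, so their directions are not independent evidence. Named were the 10 genes, Osgep, the 2 genes of smallest p in each list, and the 3 genes most correlated with Trp53 and with Cdkn1a, of which 1 is not reported here. Mentions of Fas, Pmaip1, Cdkn2a, Trp63, Trp73 and Sesn2, and of stress response genes past the threshold, were chosen after their values were seen.

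Same-numbered libraries deviated together in replicates 1 and 2 (correlations 0.811 and 0.557), and less in replicate 3 (0.196). The highest value between different numbers, 0.491, was that of shCtr replicate 3 with shOSGEP replicate 1. The numbers were taken to pair the libraries, which these values do not show for replicate 3. The reported fit and the exact permutation tests left this pairing out, and the replicate block took it in. What a number stands for is not given in the labels. The 19 alternatives were DESeq2 1.42.0, limma-voom (limma 3.58.1) with quality weights, RLE and upper-quartile scaling, 2 other filters, a replicate block, offsets for GC content and length (natural splines, 5 degrees of freedom), offsets with block, weights with block, leaving out each library, and leaving out each replicate number.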

Additional observations from a re-analysis of the deposited data

How the results depend on the processing

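Osgep, Trib3, Nupr1, Chek2 and Mdm2 kept their direction and their side of the threshold in all 19 alternatives, and over the 10 genes of the p53 group 159 of 190 values did. Plk2 ran from 0.89 to 2.29 and Gdf15 from 0.19 to 1.73. The count of the 10 genes past the threshold of the study, 1 in the reported fit, was 3 with GC and length offsets, 2 with offsets and block, 2 in limma-voom with quality weights, 2 in limma-voom with weights and block, 2 with the replicate block, 0 without both libraries of replicate 3, and between 0 (without shOSGEP replicate 2) and 2 (without shCtr replicate 2) when 1 library was left out. At an adjusted p under 0.05 the count of 0 became 2 in limma-voom with weights and block. The list genes past the threshold (9) numbered 17 with offsets, 15 in limma-voom, 21 with weights and block, 5 without both libraries of replicate 3, and 3 (without shCtr replicate 3, or without shOSGEP replicate 2) to 14 (without shOSGEP replicate 3) when 1 library was left out. Over all genes the 256 (202 higher, 54 lower) became 634 with offsets (431 higher, 203 lower), 823 with offsets and block, 560 in limma-voom, 1442 with weights and block, 599 without a filter, 373 with the replicate block, 158 without both libraries of replicate 3, and 71 (without shOSGEP replicate 2) to 428 (without shCtr replicate 1) when 1 library was left out, 167 of them without shCtr replicate 3. Upper-quartile scaling moved the median of all genes from -0.03 to 0.07 and gave 249 higher and 38 lower, while DESeq2 gave 250 higher and 120 lower.

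The signs that turned belonged to differences that passed no threshold. Cdkn1a was 0.12 with offsets, 0.13 with offsets and block, 0.26 in limma-voom, 0.23 with weights and block, 0.34 without both libraries of replicate 2, and -0.50 to 0.51 when 1 library was left out. Phlda3 was 0.15 with offsets, 0.15 with offsets and block, 0.27 in limma-voom, 0.21 with weights and block, 0.35 without both libraries of replicate 2 and -0.75 to 0.58 when 1 library was left out. With weights and block Trp53 was 0.0031, Zmat3 0.17 and Bbc3 -0.0503, and without both libraries of replicate 2 Trp53 was 0.0828 and Zmat3 0.06. When 1 library was left out, Zmat3 ran from -0.50 to 0.16, Mdm4 from -0.77 to 2.19, Trp53inp1 from -0.70 to 1.30 and Siva1 from -1.17 to 0.065, with -1.285 without both libraries of replicate 3. The causes were not tested. The replicate block changed no other call among the named genes than those of Gdf15, Gadd45a, Btg2 and Birc5. With 3 libraries a group and a biological coefficient of variation of 0.566 (0.385 with the block), the intervals of these genes are wide.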
